A study of Mus musculus with 233 samples.

Results

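Indirect pathway medium spiny neurons are the striatal projection neurons that carry the dopamine D2 receptor. The 7 genes described here were chosen as genes of these neurons: Drd2, Penk, Adora2a, Gpr6, Gpr52, Sp9 and Upb1. The choice was made with earlier results of these data known. They were looked up by symbol among the 41135 entries of the count table. A total of 6 were measured and all 6 passed the filter on low counts in every fit, and Gpr52, which encodes an orphan receptor coupled to the stimulatory G protein, was not analysed here. Bulk RNA sequencing covered 233 libraries of mouse striatum from 120 mice, of which 113 gave 2 libraries, 1 per hemisphere with a different virus in each, and 7 gave 1.

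The mice were zQ175 heterozygotes, which carry an expanded CAG tract within a human HTT exon 1 placed at the mouse Htt locus and serve to model Huntington's disease, or wild-type (WT) littermates. All striata received adeno-associated virus. The virus nZFP expressed ZFP30645, a repressor whose zinc fingers target long CAG tracts, from the human synapsin promoter, a neuronal promoter. The control virus DBD expressed the repressor without its DNA-binding domain from that promoter, and the control virus Estop held a stuffer that encodes no protein. Paradigms are named by the age in months at injection and at collection. In the order in which lists of 5 values are given, 2M_6M and 2M_8M had 4 and 6 months of treatment, then 6M_8M had 2, 6M_10M had 4 and 6M_12M had 6. Each of the 30 groups of paradigm, genotype and virus held 6 to 8 libraries, each from another mouse, and no group was left uninjected.

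The striatum sends its output through direct pathway neurons, which carry the dopamine D1 receptor and substance P, and indirect pathway neurons, which carry the D2 receptor and enkephalin. In indirect pathway neurons the D2 receptor, coupled to the inhibitory G protein, and an adenosine receptor, coupled to the stimulatory one, act against each other on adenylyl cyclase. Enkephalin loss in these neurons is an early sign of Huntington's disease. In bulk tissue, fewer cells of a type and less RNA per cell cannot be told apart.

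The genes lie on 4 mouse chromosomes in build GRCm38. Drd2, the D2 receptor gene, is at chr9:49340627-49408177 on the plus strand, and Penk, the enkephalin precursor gene, at chr4:4133531-4138819 on the minus strand. Adora2a, the gene of this adenosine receptor, at chr10:75316877-75334784 and Upb1, at chr10:75401115-75441679, share the plus strand with 66.3 kb between them. Upb1 encodes beta-ureidopropionase, the last enzyme of pyrimidine breakdown. Gpr6, at chr10:41069977-41072285 on the minus strand, encodes an orphan receptor that raises cAMP. Sp9, at chr2:73271925-73284706 on the plus strand, encodes a zinc finger transcription factor needed for the formation of these neurons. Upb1 lies within the annotated span of Gucd1 on the other strand, and the end of Sp9 overlaps Cir1 on the other strand. The sources used here do not give whether counting used the strand, and values of these overlapping genes are uncertain.

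RefSeq promoter windows of GRCm38.p6 were matched for Drd2, Gpr6, Sp9 and Upb1, and for neither Penk nor Adora2a. The 250 bases before the annotated start are shown 5′ to 3′ on the gene's strand for the 3 of them that fell in zQ175 in all 5 paradigms. The start is that of RefSeq, which for Upb1 lies inside the gene span given above and not at its first base. Capitals mark matches on either strand to the cAMP response element TGACGTCA or to the GC box GGGCGG.
Drd2, chr9:49340153-49340402, plus strand: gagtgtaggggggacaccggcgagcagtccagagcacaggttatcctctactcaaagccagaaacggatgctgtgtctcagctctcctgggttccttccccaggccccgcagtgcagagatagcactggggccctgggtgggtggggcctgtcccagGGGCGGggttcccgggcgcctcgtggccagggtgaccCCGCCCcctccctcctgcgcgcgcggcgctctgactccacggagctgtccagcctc
Gpr6, chr10:41072291-41072540, minus strand: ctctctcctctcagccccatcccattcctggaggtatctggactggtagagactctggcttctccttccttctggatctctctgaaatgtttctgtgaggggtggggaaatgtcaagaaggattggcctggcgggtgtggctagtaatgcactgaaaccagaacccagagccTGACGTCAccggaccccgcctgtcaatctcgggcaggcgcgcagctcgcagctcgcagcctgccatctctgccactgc
Upb1, chr10:75406661-75406910, plus strand: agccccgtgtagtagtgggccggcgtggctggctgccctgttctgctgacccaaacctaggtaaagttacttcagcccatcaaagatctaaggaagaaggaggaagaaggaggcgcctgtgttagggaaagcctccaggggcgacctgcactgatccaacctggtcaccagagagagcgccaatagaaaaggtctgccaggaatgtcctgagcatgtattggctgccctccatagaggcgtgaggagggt

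The Gpr6 window held 1 cAMP response element, with its first base 78 bases before the start, against 1.55% of 32851 RefSeq windows of the same length. Drd2 held 2 GC boxes and Sp9 held 1, a motif found in 32.7% of windows, and Upb1 held neither motif. Both strands were also searched for the shorter core TGACG, in 17.8% of windows, the E box CACGTG, in 6.02%, and the Egr site GCGTGGGCG, in 0.536%. Of these only the core was found, on both strands within the response element of Gpr6. The tract CAGCAGCAG, matching the kind of repeat the repressor is directed at, was in 1.28% of windows and in none of the 4. In the annotated transcripts the longest run of CAG or CTG was 3 units in Gpr6 and 2 in each of the other measured genes, while 6.24% of 21397 protein-coding genes had a run of 4 or more. These matches describe letters in a window and not binding.

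Total counts ran from 27993227 to 61296096 per library with a median of 37385970. The vector entry of the repressor had a median of 595 CPM (counts scaled to a library total of 1000000) in nZFP libraries, 8.26 CPM under DBD and 10.6 CPM under Estop. The vector entries of 4 libraries went against the label. In 6M_8M, R7 and R8 labelled WT DBD held 321 and 480 CPM of the repressor, the library labelled zQ175 nZFP R5 of 6M_8M held 8.55 CPM, and WT DBD R6 of 2M_6M held 59.2 CPM of the viral element WPRE against at least 122 CPM in the other DBD libraries. A further 3 libraries stood apart in the balance of long against short genes (zQ175 DBD R3 of 2M_6M, WT DBD R2 and zQ175 nZFP R2 of 6M_10M), with an index of -1.88 to -1.63 against -1.4 to 0.848 in the others. Many results below are also given without these 2 sets of libraries. Mouse Htt, the targeted gene, was at 121.7 ± 14.0 CPM in WT DBD, 84.1 ± 18.3 in zQ175 DBD and 78.8 ± 7.30 in zQ175 nZFP of 2M_6M (SD, n = 8, 7 and 8). Its change under the repressor against DBD in zQ175 was -0.454 to -0.058 on the log2 scale over the 5 paradigms and did not pass in any (edgeR adjusted p of 0.312 or more). This depends on the control, as zQ175 Estop of 2M_6M held 114.0 ± 11.0 CPM of Htt (SD, n = 8). In zQ175, Htt under DBD minus Estop was -0.45, -0.02, -0.13, -0.06 and -0.25 in the 5 paradigms, and it passed in 2M_6M only. The test of the repressor against Estop is not given here for Htt. A separate entry of the same gene marked HD was set aside before the fits. The values above are those of the unmarked Htt entry and do not show what the repressor did to the expanded allele.

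The genes spanned a wide range of levels. In the 39 WT DBD libraries Penk had 2538 ± 424 TPM (a level per transcript length, scaled to a sum of 1000000; mean ± SD), Adora2a 438.5 ± 60.8, Drd2 280.7 ± 54.2, Gpr6 156.3 ± 20.7, Sp9 15.3 ± 3.61 and Upb1 3.31 ± 0.808. Each neighbouring pair in this order differed by more than its SDs. Penk stood above 99.93% of all entries, and Upb1 above 72.1%. The highest of the 30 group means was 6.17 times the lowest for Upb1 on the CPM scale, 3.89 times for Penk, 2.79 times for Adora2a, 2.48 times for Gpr6, 2.24 times for Drd2 and 1.69 times for Sp9.

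**Figure D1:**
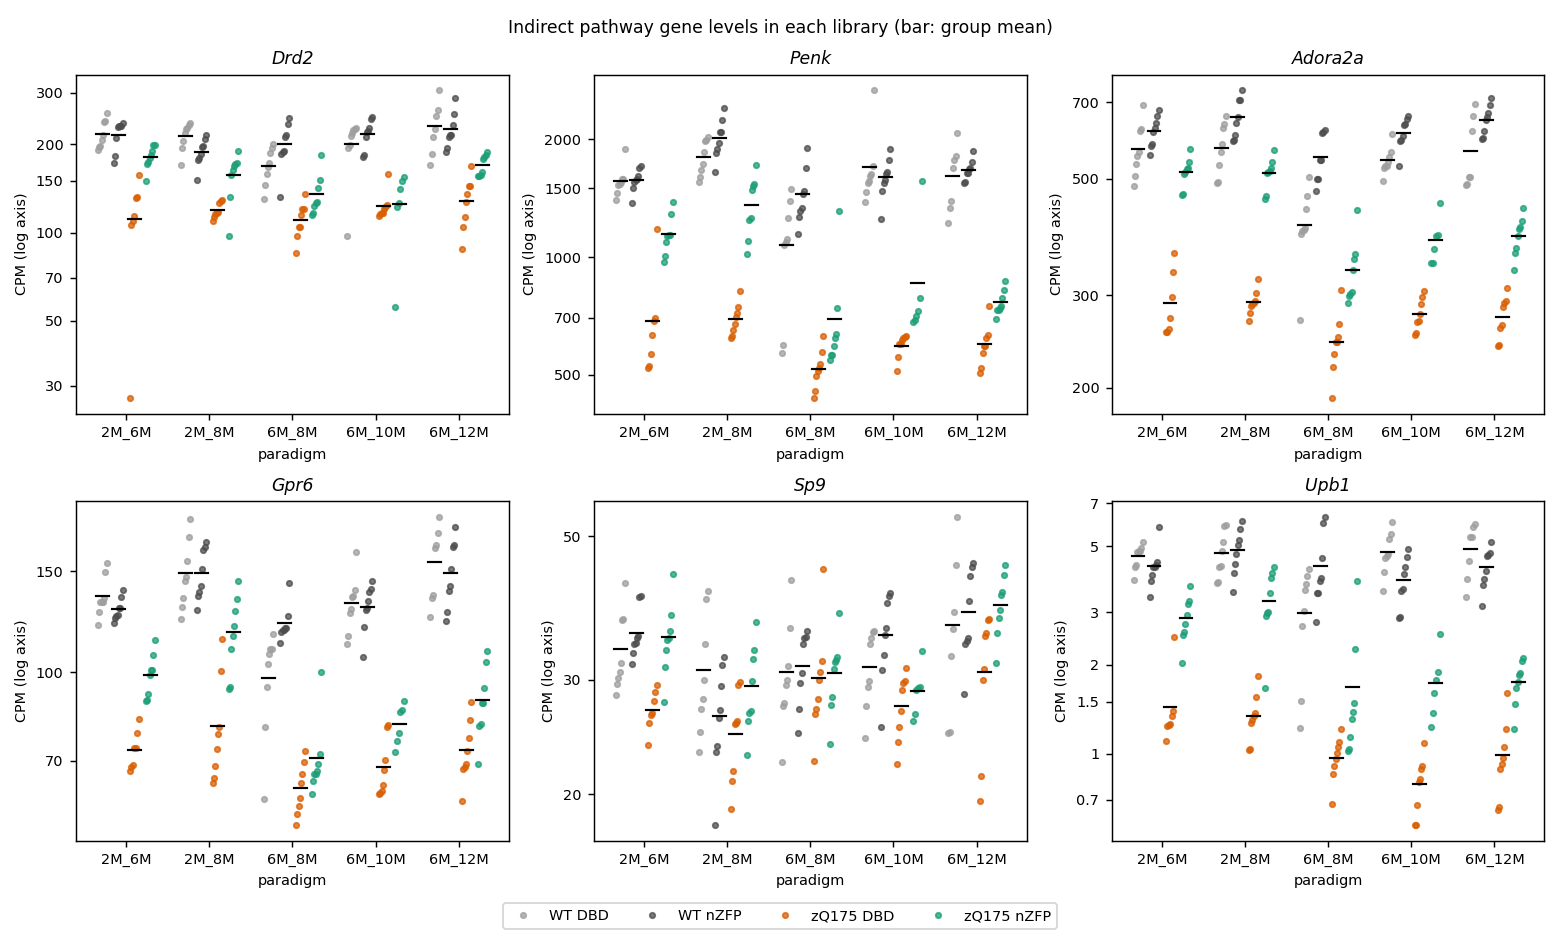
Level of each gene in each library, in CPM on a log axis, for the DBD and nZFP groups of both genotypes in the 5 paradigms; points are libraries and black bars group means. Most zQ175 DBD libraries (orange) lie below WT for 5 genes and most zQ175 nZFP libraries (green) lie between or overlap both, while the groups of Sp9 overlap. Exceptions are Drd2 libraries at 97.31 CPM (nZFP, 2M_8M) and at 55.61 (nZFP) and 97.43 CPM (WT DBD) in 6M_10M; 2 WT DBD libraries of 6M_8M lie low for Penk.

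The first comparison asked how the knock-in allele changed these genes under the control virus (zQ175 DBD minus WT DBD). Drd2, Penk, Adora2a, Gpr6 and Upb1 were lower in zQ175 in all 5 paradigms. Upb1 fell furthest, to 31.4%, 28.4%, 32.6%, 16.6% and 20.1% of the WT level, and Penk came next, at 44.3%, 38.7%, 48.3%, 34.8% and 37.0%. The 3 receptors kept 46.7% to 64.9% of the WT level. Sp9 passed the test in 2M_6M only. Counted at an adjusted p under 0.05 (edgeR quasi-likelihood test, Benjamini-Hochberg over all genes), 6, 5, 5, 5 and 5 of the 6 measured genes were lower. Of all genes tested, 11.5%, 9.37%, 5.15%, 12.3% and 9.14% were lower. The median log2 fold change of the 6 was -0.97, -0.93, -0.69, -0.97 and -1.08, against 0.035, -0.002, 0.009, -0.014 and 0.003 over all genes. Under Estop the same 5 genes were lower in all 5 paradigms, among 9.28%, 8.53%, 6.64%, 11.1% and 8.92% of all genes.

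The second comparison asked what the repressor did in zQ175 (zQ175 nZFP minus zQ175 DBD). All 6 genes had a positive fold change in every paradigm, although with the mouse as a block Drd2 in 6M_10M was at -0.100 and Sp9 in 6M_8M at -0.015. Of the 6 genes, 6, 5, 0, 3 and 3 passed the test. Of all genes, 8.8%, 4.16%, 0.0437%, 0.562% and 0.676% were called higher. The median log2 fold change of the 6 was 0.71, 0.68, 0.36, 0.36 and 0.39. With the mouse as a block, Drd2 no longer passed in 2M_6M nor Penk in 6M_10M, which left 5 and 2 genes, while 5 genes passed in 6M_12M. The shares of all genes above are of the fit without this block, and those under the block are not given here. Both comparisons use the zQ175 DBD libraries, so their values share that error. Percent restored is the rise in zQ175 under nZFP over DBD as a share of the gap between WT DBD and zQ175 DBD, on the log2(CPM + 1) scale, with a Fieller 95% interval. Its median over the genes that fell was 69.6% of 6 genes in 2M_6M, and 66.1%, 40.1%, 31.1% and 29.9% of 5 genes in the later paradigms. Against Estop the medians were 64.6%, 56.7%, 19.5%, 25.4% and 28.8%. Both 2M_6M medians include Sp9, at 121.1% against DBD, and the medians of the other paradigms leave it out. Against DBD the other 5 genes had 48.3%, 54.6%, 62.7%, 76.5% and 85.2% in 2M_6M. In 2M_8M the same 5 had 44.1%, 61.6%, 66.1%, 69.4% and 83.9%. Without the libraries that went against their labels the median of 6M_8M was 22.3%, and on the CPM scale that of 6M_12M was 19.5%.

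**Figure D2:**
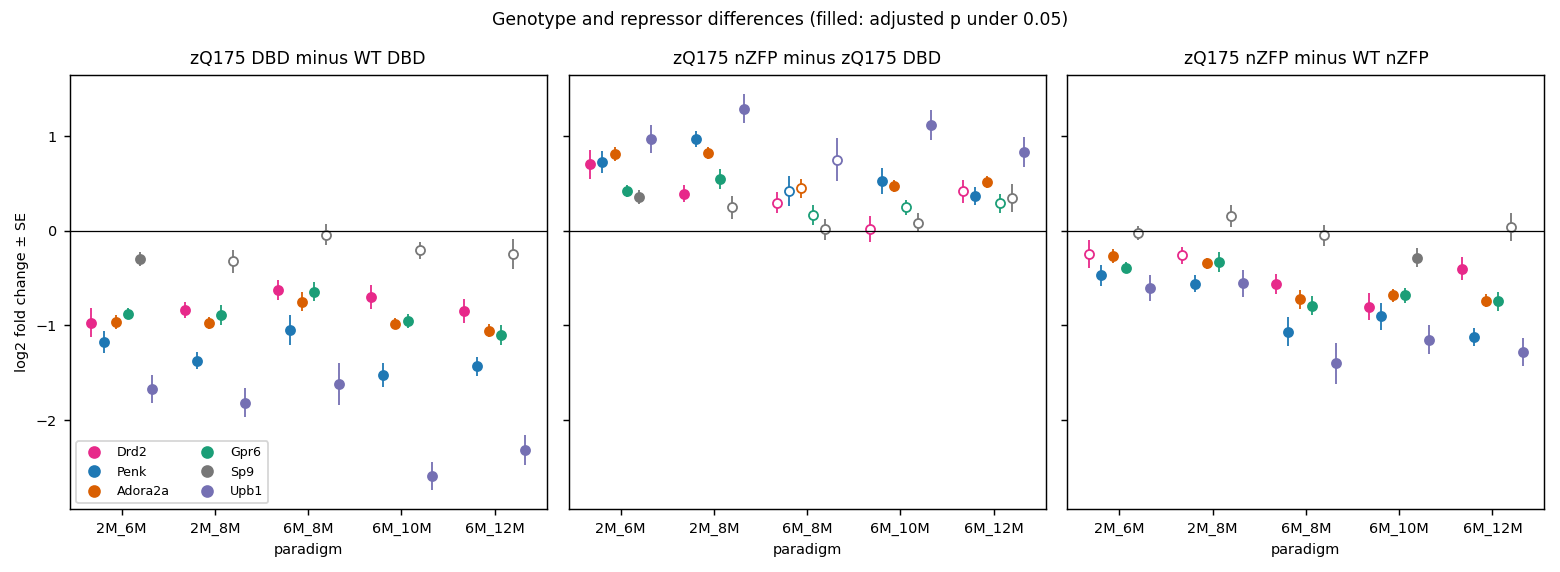
Log2 fold change with standard error of each gene in the 5 paradigms, for zQ175 DBD minus WT DBD, zQ175 nZFP minus zQ175 DBD and zQ175 nZFP minus WT nZFP; filled points have an adjusted p under 0.05. For the last contrast the 5 genes that fell lie nearer to 0 in 2M_6M and 2M_8M than in 6M_10M.

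Drd2 encodes the D2 receptor, through which dopamine lowers cAMP in these neurons. In 2M_6M it had 191.2, 211.2 and 255.3 CPM (lowest, median and highest) in 8 WT DBD libraries, 27.15, 113.9 and 156.9 in 7 zQ175 DBD libraries and 150.5, 182.1 and 198.9 in 8 zQ175 nZFP libraries. In 2M_8M the 3 values were 170.0, 222.2 and 236.0 in WT DBD, 109.2, 116.9 and 128.8 in zQ175 DBD and 97.31, 166.2 and 190.6 in zQ175 nZFP. The genotype groups were apart in both, and in 2M_8M 7 of 8 nZFP libraries lay above all zQ175 DBD libraries while 1 lay below them. In 6M_8M the values were 129.7, 169.8 and 200.6 in WT DBD, 85.02, 109.5 and 135.5 in zQ175 DBD and 114.4, 126.7 and 184.4 in zQ175 nZFP. In 6M_10M they were 97.43, 216.5 and 227.3 in WT DBD, 114.3, 118.4 and 158.5 in zQ175 DBD and 55.61, 133.5 and 154.5 in 6 zQ175 nZFP libraries. The lowest WT and the lowest nZFP library of 6M_10M, and the lowest zQ175 DBD library of 2M_6M, were the 3 that stood apart. In 6M_12M Drd2 had 170.1, 226.2 and 307.0 CPM in 7 WT DBD libraries, 88.02, 131.6 and 168.4 in zQ175 DBD and 156.3, 170.0 and 188.9 in zQ175 nZFP.

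The genotype difference of Drd2 was -0.97, -0.84, -0.62, -0.70 and -0.85 on the log2 scale (SE 0.09 to 0.16), and adjusted p was at most 0.000134. The repressor raised it by 0.70 ± 0.15 in 2M_6M (log2 ± SE, adjusted p = 0.00114) and by 0.39 ± 0.09 in 2M_8M (adjusted p = 0.00202). The 2M_6M rise was 0.71 with the mouse as a block (adjusted p = 0.0649), 0.53 without the library that stood apart (adjusted p = 7.07e-06) and 0.36 against Estop (adjusted p = 0.148). Later values were 0.30 (adjusted p = 0.67), 0.02 (adjusted p = 0.946) and 0.42 (adjusted p = 0.087). With the mouse as a block the 6M_12M value was 0.32 and passed (adjusted p = 0.0114), and without the libraries that stood apart the 6M_10M value was 0.18 (adjusted p = 0.286). Percent restored was 76.5% (48.4 to 110.2), 44.1% (24.5 to 63.1), 48.1% (13.0 to 82.5), -7.2% (-75.6 to 34.8) and 51.1% (24.2 to 78.9). Without the libraries that stood apart, 2M_6M gave 67.2% (48.9 to 86.4) and 6M_10M 21.8% (4.1 to 38.2), and without those that went against their labels, 6M_8M gave 31.3% (1.2 to 58.9). Estop in place of DBD gave 58.2%, 32.9%, 17.9%, -8.8% and 36.9%.

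Adora2a encodes the receptor through which adenosine raises cAMP in these neurons. In 2M_6M it had 485.5, 557.0 and 690.6 CPM in WT DBD, 255.2, 271.8 and 361.6 in zQ175 DBD and 467.1, 519.1 and 570.9 in zQ175 nZFP. In 2M_8M it had 490.4, 573.3 and 658.4 in WT DBD, 267.7, 289.5 and 322.5 in zQ175 DBD and 458.3, 516.2 and 568.7 in zQ175 nZFP. In both paradigms every nZFP library lay above every zQ175 DBD library and the nZFP range overlapped that of WT. In 6M_8M the values were 269.2, 401.5 and 504.7 in WT DBD, 191.2, 244.7 and 306.9 in zQ175 DBD and 290.3, 319.9 and 435.9 in zQ175 nZFP. In 6M_10M they were 496.4, 534.3 and 609.7 in WT DBD, 252.8, 272.5 and 306.1 in zQ175 DBD and 345.7, 378.5 and 450.1 in zQ175 nZFP. In 6M_12M they were 486.2, 504.9 and 694.7 in WT DBD, 240.3, 274.7 and 310.4 in zQ175 DBD and 335.0, 395.1 and 441.1 in zQ175 nZFP. The 3 ranges were separate from each other in 6M_10M and 6M_12M.

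The genotype difference of Adora2a was -0.96, -0.97, -0.75, -0.98 and -1.06 (SE 0.06 to 0.10, adjusted p at most 6.58e-06). It rose under the repressor by 0.81 ± 0.07 in 2M_6M, 0.82 ± 0.06 in 2M_8M, 0.47 ± 0.06 in 6M_10M and 0.52 ± 0.07 in 6M_12M, with adjusted p from 2.41e-13 to 4.59e-06. In 6M_8M it was 0.45 ± 0.10 (adjusted p = 0.0586), and 0.39 without the libraries that went against their labels (adjusted p = 0.0603). Percent restored was 85.2% (72.2 to 99.7), 83.9% (73.1 to 95.8), 61.9% (36.5 to 89.6), 47.6% (35.5 to 59.5) and 49.1% (38.0 to 60.4). In 6M_8M it was 47.4% (26.6 to 68.8) without the libraries that went against their labels. Against Estop the shares were 68.0%, 56.7%, 28.6%, 26.9% and 28.8%, lower throughout, as zQ175 DBD libraries had less Adora2a than zQ175 Estop libraries. The nZFP rise passed against Estop in the same 4 paradigms, at 0.56, 0.55, 0.28 and 0.33 (adjusted p = 1.47e-07, 7.64e-09, 0.0172 and 0.00267).

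Gpr6 encodes a receptor that raises cAMP without a known physiological ligand. In 2M_6M it had 121.0, 132.5 and 155.1 CPM in WT DBD, 67.09, 73.58 and 82.69 in zQ175 DBD and 88.88, 99.94 and 113.6 in zQ175 nZFP. In 2M_8M it had 124.1, 145.6 and 185.0 in WT DBD, 64.08, 75.73 and 114.2 in zQ175 DBD and 93.54, 118.1 and 144.5 in zQ175 nZFP. The 2M_6M ranges did not touch, and in 2M_8M 5 of 8 nZFP libraries lay above all zQ175 DBD libraries. In 6M_8M the values were 60.12, 105.3 and 116.5 in WT DBD, 54.03, 62.12 and 72.89 in zQ175 DBD and 61.3, 66.82 and 100.2 in zQ175 nZFP. In 6M_10M they were 111.8, 132.3 and 162.3 in WT DBD, 61.32, 65.54 and 80.71 in zQ175 DBD and 72.42, 81.74 and 89.01 in zQ175 nZFP. In 6M_12M they were 125.0, 164.9 and 186.7 in WT DBD, 59.66, 71.01 and 88.69 in zQ175 DBD and 69.23, 88.32 and 109.1 in zQ175 nZFP. After injection at 6 months the nZFP and DBD ranges overlapped in all 3 paradigms.

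The genotype difference of Gpr6 was -0.87, -0.89, -0.64, -0.95 and -1.10 (SE 0.06 to 0.11, adjusted p at most 3.88e-05). It rose under the repressor by 0.42 ± 0.06 in 2M_6M (adjusted p = 3.23e-06) and 0.55 ± 0.11 in 2M_8M (adjusted p = 0.000344). Later values were 0.17 (adjusted p = 1), 0.25 (adjusted p = 0.144) and 0.29 (adjusted p = 0.172), and the last was 0.34 and passed with the mouse as a block (adjusted p = 0.00189). Percent restored was 48.3% (36.3 to 60.2), 61.6% (40.8 to 83.9), 27.0% (-9.3 to 57.1), 26.2% (10.0 to 41.2) and 26.0% (8.0 to 42.3). Without the libraries that went against their labels it was 11.9% (-9.6 to 30.5) in 6M_8M. Estop gave 47.2%, 56.1%, 16.6%, 25.4% and 28.8%.

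**Figure D3:**
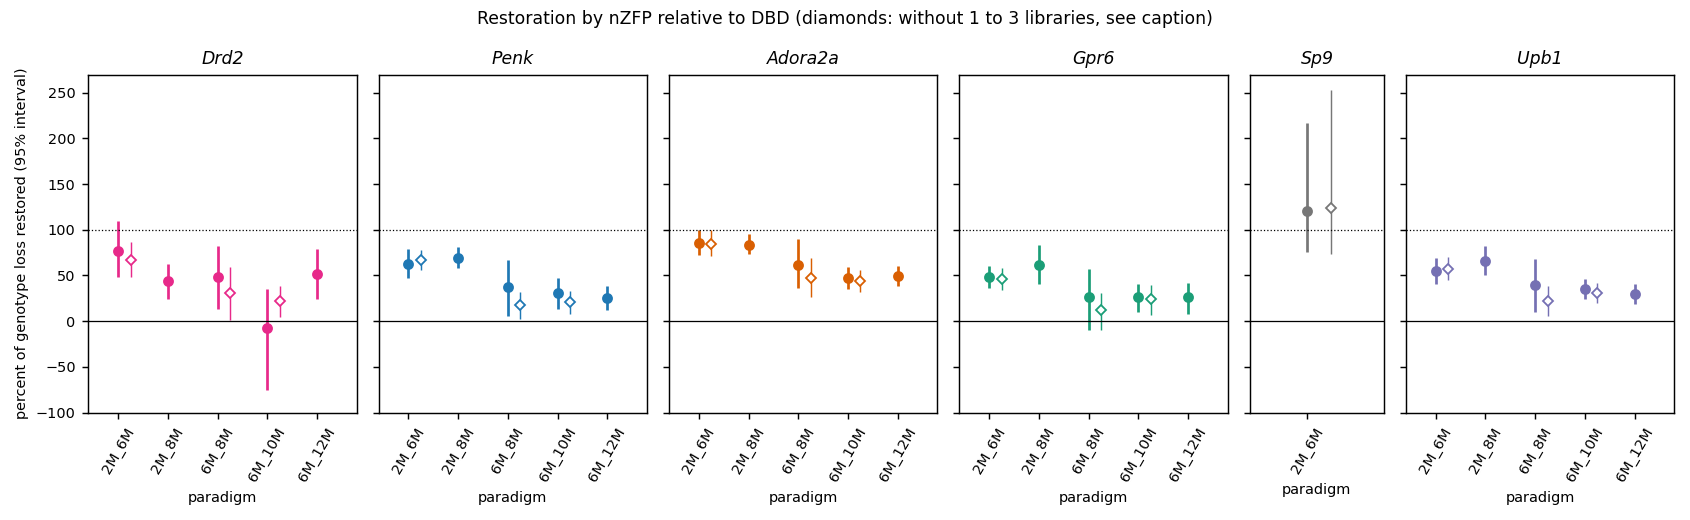
Percent of the genotype loss restored by nZFP relative to DBD, with Fieller 95% intervals, by gene and paradigm; filled points use all libraries and open diamonds leave out the 3 libraries that stood apart (2M_6M and 6M_10M) or the 3 of 6M_8M that went against their labels. Dotted lines mark 100%. Adora2a reaches 85.2% and 83.9% after injection at 2 months, and Drd2 in 6M_10M goes from -7.2% to 21.8% without the libraries that stood apart.

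Penk encodes the precursor of the enkephalins, the opioid peptides of indirect pathway neurons. In 2M_6M it had 1400, 1550 and 1892 CPM in WT DBD, 520.4, 633.6 and 1177 in zQ175 DBD and 972.4, 1135 and 1379 in zQ175 nZFP. In 2M_8M it had 1556, 1797 and 2027 in WT DBD, 620.5, 688.7 and 820.7 in zQ175 DBD and 1021, 1371 and 1719 in zQ175 nZFP. The highest zQ175 DBD library of 2M_6M was the one that stood apart; the next had 700.9 CPM, below every nZFP library. In 6M_8M the values were 570.1, 1101 and 1491 in WT DBD, 435.7, 515.5 and 629.8 in zQ175 DBD and 544.2, 607.7 and 1310 in zQ175 nZFP. Of those labelled WT DBD, R7 and R8 had 570.1 and 594.7 CPM while the other 6 ran from 1074 to 1491, and the library labelled zQ175 nZFP R5 had 1310 CPM while the other 7 ran from 544.2 to 742.2. In 6M_10M the values were 1382, 1588 and 2675 in WT DBD, 512.8, 606.3 and 630.3 in zQ175 DBD and 684.6, 716.9 and 1567 in zQ175 nZFP. The 2 highest, 2675 in WT DBD and 1567 in zQ175 nZFP, were the libraries that stood apart, which had the lowest Drd2 of their groups. In 6M_12M Penk had 1223, 1693 and 2079 CPM in WT DBD, 506.0, 591.9 and 751.0 in zQ175 DBD and 695.2, 746.6 and 871.4 in zQ175 nZFP.

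The genotype difference of Penk was -1.18, -1.37, -1.05, -1.52 and -1.43 (SE 0.09 to 0.16, adjusted p at most 2.05e-05), and -1.248 in 6M_8M without the libraries that went against their labels. The repressor raised it by 0.72 ± 0.11 in 2M_6M (adjusted p = 1.11e-05) and by 0.97 ± 0.09 in 2M_8M (adjusted p = 5e-11). In 6M_10M it was 0.53 ± 0.14 higher (adjusted p = 0.0409). That call was lost without the libraries that stood apart (0.29, adjusted p = 0.0718), with the mouse as a block (0.57, adjusted p = 0.0812) and against Estop (0.37, adjusted p = 0.335). In 6M_12M it was 0.37 ± 0.10 higher (adjusted p = 0.036), with 0.40 under the mouse block (adjusted p = 0.000135) and 0.20 against Estop (adjusted p = 0.461). The 6M_8M value of 0.42 did not pass (adjusted p = 0.687) and was 0.22 without the libraries that went against their labels. Percent restored was 62.7% (47.3 to 78.8), 69.4% (57.9 to 81.5), 37.9% (5.6 to 67.2), 31.1% (13.7 to 47.5) and 25.7% (12.5 to 38.0). Without the libraries that stood apart it was 20.6% (8.0 to 32.5) in 6M_10M, and without those that went against their labels 18.0% (2.4 to 32.2) in 6M_8M. Estop in place of DBD gave 61.6%, 60.6%, 19.5%, 25.4% and 14.5%, and the CPM scale gave 16.6% in 6M_12M.

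Upb1 was the least abundant of the 6 genes, so counting error weighs most on it. In 2M_6M it had 3.86, 4.813 and 5.193 CPM in WT DBD, 1.105, 1.259 and 2.483 in zQ175 DBD and 2.032, 2.836 and 3.689 in zQ175 nZFP. In 2M_8M it had 3.77, 4.559 and 5.929 in WT DBD, 1.032, 1.32 and 1.829 in zQ175 DBD and 1.663, 3.24 and 4.272 in zQ175 nZFP. WT and zQ175 DBD libraries were apart in both, and in each 7 of 8 nZFP libraries lay above all zQ175 DBD libraries. In 6M_8M the values were 1.223, 3.305 and 4.193 in WT DBD, 0.6755, 0.9819 and 1.215 in zQ175 DBD and 1.02, 1.349 and 3.822 in zQ175 nZFP. In 6M_10M they were 3.55, 4.673 and 6.038 in WT DBD, 0.575, 0.815 and 1.09 in zQ175 DBD and 1.235, 1.688 and 2.543 in zQ175 nZFP. In 6M_12M they were 3.378, 5.366 and 5.934 in WT DBD, 0.6447, 0.9461 and 1.605 in zQ175 DBD and 1.216, 1.793 and 2.107 in zQ175 nZFP. The WT DBD and zQ175 DBD ranges of Upb1 were separate in all 5 paradigms, though in 6M_8M only by 1.215 against 1.223 CPM. Those of Penk, Adora2a and Gpr6 were separate in 4, and without R7 and R8 of WT DBD in 6M_8M as well. The share of all genes with separate ranges is not given here, so these counts do not show how unusual separation was.

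The genotype difference of Upb1 was -1.67, -1.82, -1.62, -2.59 and -2.32 (SE 0.15 to 0.22, adjusted p at most 6.58e-06). It rose under the repressor by 0.97 ± 0.15 in 2M_6M, 1.29 ± 0.15 in 2M_8M, 1.12 ± 0.16 in 6M_10M and 0.83 ± 0.16 in 6M_12M, with adjusted p from 3.87e-08 to 0.00138. Against Estop the same 4 paradigms passed, at 1.19, 1.64, 0.75 and 1.00. In 6M_8M the rise was 0.75 ± 0.22 (adjusted p = 0.321), and 0.50 without the libraries that went against their labels (adjusted p = 0.493). Percent restored was 54.6% (40.3 to 69.0), 66.1% (50.9 to 82.2), 40.1% (10.3 to 67.8), 35.5% (24.4 to 46.2) and 29.9% (18.3 to 40.9). The 6M_8M value was 22.3% (5.2 to 38.0) without the libraries that went against their labels. Estop gave 67.6%, 76.5%, 36.8%, 38.3% and 38.9%, and on the CPM scale the 6M_12M value was 19.2%.

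Sp9, the transcription factor gene, moved least. In 2M_6M it had 28.46, 31.33 and 42.3 CPM in WT DBD, 23.8, 26.65 and 29.49 in zQ175 DBD and 27.72, 34.71 and 43.66 in zQ175 nZFP. Its WT and zQ175 DBD ranges overlapped in every paradigm, with group means of 30.9 to 36.4 CPM in WT DBD and 24.8 to 30.9 CPM in zQ175 DBD. The genotype difference was -0.30 ± 0.08 in 2M_6M (adjusted p = 0.00323), -0.32 in 2M_8M (adjusted p = 0.0539), and -0.04, -0.21 and -0.24 later. Under Estop it was -0.05 in 2M_6M (adjusted p = 0.733) and -0.35 in 2M_8M (adjusted p = 0.0428), so the paradigm that passed was another one. Without the libraries that stood apart Sp9 was also lower in 6M_10M, at -0.26 (adjusted p = 0.0231). The repressor raised it by 0.36 ± 0.08 in 2M_6M (adjusted p = 0.000936), where 7 of 8 nZFP libraries lay above every zQ175 DBD library. In the other paradigms it was 0.25, 0.01, 0.08 and 0.35, with adjusted p of 0.238 or more. Percent restored could be given for 2M_6M only, at 121.1% (75.5 to 217.1), and was 513.1% against Estop, where the genotype difference nears 0.

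The third comparison asked what difference between genotypes remained when both had received the repressor (zQ175 nZFP minus WT nZFP). Of the 6 genes, 4, 4, 5, 6 and 5 were lower in zQ175. Of all genes, 0.664%, 2.62%, 9.18%, 9.28% and 8.75% were lower. Penk remained lower by 0.47, 0.56, 1.06, 0.90 and 1.12 on the log2 scale with an adjusted p of at most 0.0121. The Upb1 difference was -0.60, -0.55, -1.40, -1.15 and -1.28 (adjusted p at most 0.0123), that of Adora2a -0.27, -0.34, -0.73, -0.68 and -0.74 (at most 0.031), and that of Gpr6 -0.39, -0.33, -0.79, -0.68 and -0.75 (at most 0.0461). Drd2 was at -0.24 in 2M_6M (adjusted p = 0.634) and -0.26 in 2M_8M (adjusted p = 0.0593), and was lower by 0.56, 0.80 and 0.40 in the other 3 (adjusted p = 0.000264, 2.77e-05 and 0.0179). Without the library that stood apart, the spread of 2M_6M fell and Drd2 passed there at -0.25 (adjusted p = 0.0439). Sp9 passed in 6M_10M only, at -0.29 (adjusted p = 0.0382).

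In WT mice the median log2 fold change of the 6 genes under the repressor (WT nZFP minus WT DBD) was 0.0, 0.01, 0.37, 0.05 and 0.01. In 6M_8M, whose WT DBD group holds R7 and R8, the 6 values ran from -0.036 to 0.341 without the libraries that went against their labels. Adora2a in 6M_8M, at 0.43 ± 0.10 (adjusted p = 0.0349), was the 1 call among 30 tests, while 0.0319%, 0.938%, 0.519%, 0.183% and 0.0322% of all genes were higher. It was 0.34 without the libraries that went against their labels (adjusted p = 0.0851) and 0.18 against Estop (adjusted p = 0.534). The interaction, the repressor effect in zQ175 minus that in WT, was tested directly. In 2M_6M it passed for Drd2 (0.73, adjusted p = 0.0479), Penk (0.70, 0.00553), Adora2a (0.70, 1.83e-05), Gpr6 (0.49, 0.000384) and Upb1 (1.07, 0.000786), where 2.09% of all genes were higher. The Drd2 call was lost against Estop (0.38, adjusted p = 0.696), with the mouse as a block (0.78, adjusted p = 0.332), with no filter on low counts (0.73, adjusted p = 0.0861) and without the library of 2M_6M that went against its label (0.74, adjusted p = 0.0594). It was 0.55 without the library that stood apart (adjusted p = 0.00158). In 2M_8M the same 5 genes passed, with 0.58, 0.81, 0.63, 0.56 and 1.26 (adjusted p = 0.00365, 3.88e-05, 5.84e-06, 0.034 and 0.000141), where 1.46% of all genes were higher. The Gpr6 call of 2M_8M was lost against Estop (0.52, adjusted p = 0.0623) and with no filter on low counts (0.55, adjusted p = 0.0579). In 6M_10M Upb1 passed with 1.44 ± 0.20 (adjusted p = 0.000164) where 0.0379% of all genes were higher, and the value against Estop was 0.56 (adjusted p = 0.933). In 6M_8M and 6M_12M no member and 0% of all genes were higher.

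Most mice carried 2 viruses, which allowed each member to be compared between hemispheres of 1 animal. Among 18 zQ175 mice with nZFP on one side and DBD on the other, Upb1 was higher on the nZFP side in 18, Penk, Adora2a and Gpr6 in 17, Drd2 in 15 and Sp9 in 14. Mean log2(CPM + 1) differences were 0.583 for Upb1, 0.603 for Penk, 0.557 for Adora2a and 0.277 for Gpr6, with permutation p adjusted over the 6 genes of at most 4.5e-05. Drd2 differed by 0.161 (adjusted permutation p = 0.175). The mouse that holds zQ175 nZFP R2 of 6M_10M had a difference of -1.49, and without it Drd2 differed by 0.258 in 17 mice (adjusted permutation p = 0.00115), an alternative chosen after the data were seen. Sp9 differed by 0.117 (adjusted permutation p = 0.0326), and by 0.109 without the mouse whose library went against its label (adjusted permutation p = 0.0538). Among 19 zQ175 mice with nZFP and Estop, all 6 genes passed, with 0.274 for Drd2, 0.47 for Penk, 0.414 for Adora2a, 0.34 for Gpr6, 0.209 for Sp9 and 0.695 for Upb1. The share of all genes that would pass these same-mouse tests, in zQ175 or in WT, is not given here.

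In WT mice the hemispheres were closer. Adora2a was higher on the nZFP side than on the DBD side in 15 of 19 mice, by 0.229 (adjusted permutation p = 0.00504), and Upb1 was higher than on the Estop side in 14 of 18, by 0.237 (adjusted permutation p = 0.0452). No other of the 12 tests in WT passed. In the 17 WT mice without libraries that went against their labels, Adora2a kept 0.16 against DBD (adjusted permutation p = 0.022), and Drd2 at -0.144 (0.0376) and Upb1 at -0.121 (0.0458) were lower on the nZFP side.

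**Figure D4:**
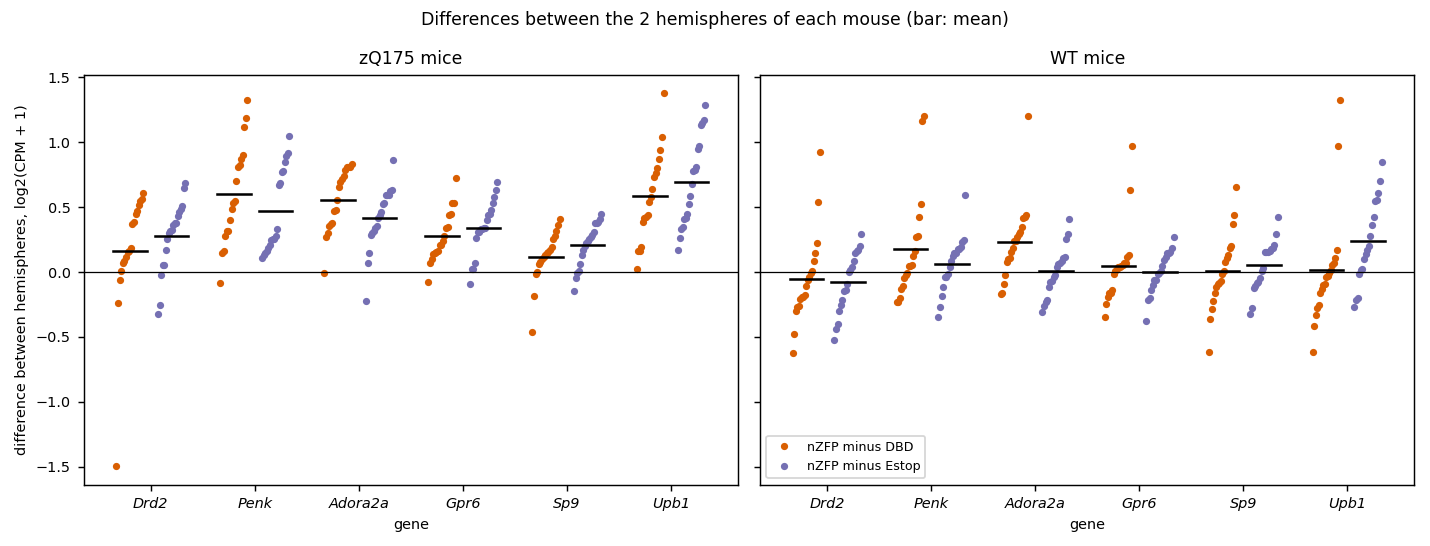
Difference in log2(CPM + 1) between the nZFP hemisphere and the control hemisphere of the same mouse, by gene, for zQ175 (left) and WT (right); points are mice, orange against DBD and purple against Estop, and bars are means. In zQ175 the points of Penk and Upb1 lie almost all above 0, and 1 mouse lies at -1.49 for Drd2.

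The 2 control viruses differed for Adora2a. It was lower under DBD than under Estop in zQ175 mice of 2M_6M, by 0.25 ± 0.07 (adjusted p = 0.042), and of 2M_8M, by 0.27 ± 0.06 (adjusted p = 0.0361), and in no other paradigm. The first call was lost with the mouse as a block (adjusted p = 0.168), with no filter on low counts (0.0676) and without the library that stood apart (0.233), and the second with the mouse as a block (0.0614) and with no filter (0.0778). Of all genes 1.16%, 0.101%, 0.0375%, 0.17% and 0.213% were lower in zQ175 and 0.0191%, 0.101%, 0.138%, 0.524% and 0.058% in WT. In the other paradigms and in WT its value lay between -0.26 and -0.12 and did not pass, so it was negative in all 10 contrasts. In WT it passed in 6M_10M without the libraries that stood apart (-0.26, adjusted p = 0.00297) and in 2M_8M with the mouse as a block (-0.23, adjusted p = 0.0378). In 2M_6M zQ175 mice, Adora2a ran from 294.8 to 399.1 CPM under Estop with a median of 341.4, against a median of 271.8 under DBD, and the ranges overlapped. Upb1 was higher under DBD than under Estop in WT mice of 6M_10M, by 0.51 ± 0.13 (adjusted p = 0.0435), where 0.145% of all genes were higher. That call was lost with the mouse as a block (0.46, adjusted p = 0.16) and with no filter on low counts (0.51, adjusted p = 0.0651). Drd2, Penk, Gpr6 and Sp9 passed in none of the 10.

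Differences of effects between paradigms were tested in 1 fit of all 30 groups. With 4 months of treatment, the repressor effect was larger after injection at 2 months than at 6 months (2M_6M minus 6M_10M) for Drd2, by 0.69 ± 0.18 (adjusted p = 0.00758), and Adora2a, by 0.36 ± 0.11 (adjusted p = 0.0218), where 2.57% of all genes were higher. The genotype loss of Upb1 was smaller in 2M_6M than in 6M_10M by 0.90 ± 0.24 (adjusted p = 0.0431), where 0.858% were higher. None of these 3 passed without the libraries that stood apart, at 0.37, 0.39 and 0.71 (adjusted p = 0.667, 0.265 and 1). With 6 months of treatment (2M_8M minus 6M_12M) the repressor effect on Penk was 0.61 ± 0.17 larger after injection at 2 months (adjusted p = 0.0966, with 0.0715% of all genes called higher), and it passed without the libraries that went against their labels (0.61, adjusted p = 0.028) and without those that stood apart (0.60, adjusted p = 0.0363). At collection at 8 months (2M_8M minus 6M_8M) the difference for Penk was 0.54 (adjusted p = 0.363, with 0.0476% of all genes called higher). It was 0.74 without the libraries that went against their labels (adjusted p = 0.00218), where Adora2a also passed with 0.43 (adjusted p = 0.0154). Upb1 was lower in females than in males by 0.15 ± 0.04 (adjusted p = 0.0114), where 5.73% of all genes were lower, and the other 5 genes did not pass for sex.

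Members were set against their direct pathway counterparts within each library. Penk minus Tac1, the substance P gene, in log2(CPM + 1), was 2.866 ± 0.047 in WT DBD (SD, n = 8), 1.179 ± 0.411 in zQ175 DBD (n = 7) and 2.476 ± 0.174 in zQ175 nZFP (n = 8) of 2M_6M. The genotype difference in it was -1.687, -1.505, -1.092, -1.409 and -1.411, and the repressor raised it by 1.297, 0.999, 0.362, 0.175 and 0.577. In 6M_8M the rise under the repressor was 0.19 without the libraries that went against their labels. Without the libraries that stood apart it was 1.144 in 2M_6M and 0.234 in 6M_10M. With all libraries, all 10 passed an exact permutation test adjusted over 20 tests, with p from 0.000444 to 0.0333. Tac1 was higher in zQ175 DBD of 2M_6M by 0.69 ± 0.18 (adjusted p = 0.00361) with a range of 206.0 to 985.8 CPM, in which the highest library lies far from the median of 234.3, and it did not pass in the other paradigms. Under the repressor in zQ175, Tac1 fell by 0.753 in 2M_6M (adjusted p = 0.00276), so the rise of the difference there is not that of Penk alone. In 6M_10M Tac1 was 0.414 higher under the repressor and did not pass (adjusted p = 0.381). Drd2 minus Drd1, the D1 receptor gene, passed in none of the 10 exact tests, with differences of -0.34 to 0.336 and adjusted exact p from 0.127 to 0.787. Without the libraries that went against their labels, the genotype difference of 6M_8M was 0.13 and passed (adjusted exact p = 0.039). Drd1 fell by 0.76, 0.72, 0.71, 0.82 and 0.93, close in size to Drd2.

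**Figure D5:**
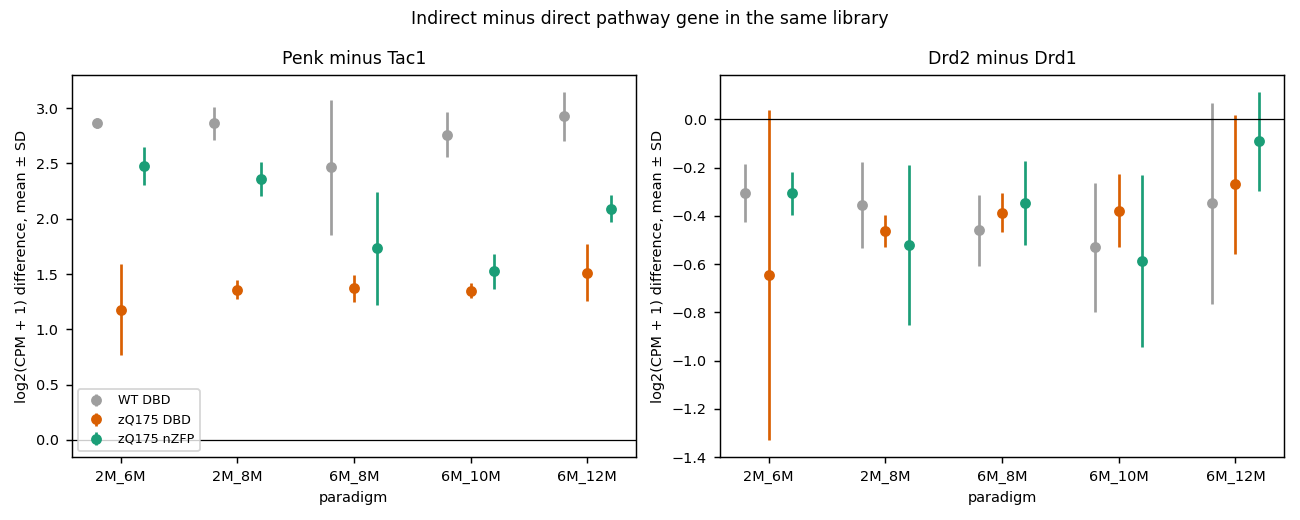
Difference in log2(CPM + 1) within a library between an indirect and a direct pathway gene, mean with SD over libraries, by paradigm and group. Penk minus Tac1 is lowest in zQ175 DBD in all 5 paradigms, whereas the 3 groups overlap for Drd2 minus Drd1; the SD of 0.685 in zQ175 DBD of 2M_6M comes with 1 library at 27.15 CPM of Drd2.

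Among 37 zQ175 nZFP libraries whose vector entries matched the label, the level of the repressor transcript was compared with each gene, both centred within paradigm. Drd2 was the 1 gene of 6 to pass, with Pearson's r of 0.456 (permutation p adjusted over 6 genes = 0.0073), Spearman's rho of 0.422 (0.048) and r of 0.41 without the 2 farthest libraries. Within paradigms r was 0.82, 0.75, -0.12, 0.87 and 0.28 over 6 to 8 libraries. Without the library that stood apart r was 0.484 (adjusted permutation p = 0.061), and 6M_10M alone turned to -0.43. The other genes did not pass (adjusted permutation p of 0.12 or more). With all 37 libraries their r was -0.307 for Penk, -0.066 for Adora2a, -0.111 for Gpr6, 0.314 for Sp9 and -0.04 for Upb1.

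Other genes of these neurons and pathways were counted by list. In the 5 paradigms 11.5%, 9.37%, 5.15%, 12.3% and 9.14% of all genes were lower in zQ175 DBD, and 8.8%, 4.16%, 0.0437%, 0.562% and 0.676% were higher under the repressor. These are the shares to set beside the counts of each list in those directions. Shares of all genes in the opposite directions are not given here, so list counts in those directions stand without one. Of 11 markers of medium spiny neurons in general, 10, 9, 11, 11 and 9 were lower in zQ175 DBD, with a median log2 fold change of -0.71 to -0.50. The summed level of these 11 markers had a median of 9183 TPM (5235 to 11140) in WT DBD, 5609 (3094 to 6639) in zQ175 DBD and 6897 (4459 to 8966) in zQ175 nZFP, so it moved with the members. Its part in their fall was not tested. Under the repressor 10, 7, 0, 5 and 4 of the 11 were higher. Of 14 genes of receptor signalling, 9, 7, 7, 8 and 7 were lower in zQ175 DBD and 1, 0, 0, 2 and 1 higher. Rgs4, a regulator that shortens G protein signals, was at -1.248 to -0.85, Rgs9, the striatal regulator of D2 signalling, at -0.88 to -0.61, and Adcy5, the main striatal adenylyl cyclase, at -0.89 to -0.62, all past the threshold in all 5 paradigms. Under the repressor 9, 5, 0, 1 and 1 of the 14 were higher, with Rgs9 at 0.58, 0.44, 0.29, 0.33 and 0.48, of which the third and the fifth did not pass. In 2M_6M 1 of the 14 was lower under the repressor.

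Of 8 genes that process enkephalin or receive it, 2, 0, 0, 2 and 1 were lower and 1, 1, 1, 0 and 1 higher in zQ175 DBD. Pcsk2, which cuts proenkephalin, was at -0.21 in 2M_6M, -0.23 in 6M_10M and -0.27 in 6M_12M, all past the threshold, while Scg5, its chaperone, was higher by 0.53, 0.27 and 0.31 in the first 3 paradigms. Of 10 direct pathway genes, 2, 3, 2, 3 and 4 were lower and 5, 2, 0, 1 and 0 higher. For the higher counts of this list and of the enkephalin list, the share of all genes is not given here. Chrm4, the muscarinic M4 receptor gene, was lower in all 5 paradigms, by 0.71 to 0.97. Of 5 further genes linked to indirect pathway neurons, 1, 0, 1, 1 and 0 were lower, each time Plxdc1, at -0.47, -0.23 and -0.20. The summed levels of markers of other cell types follow. The 5 astrocyte markers had a median of 428.8 TPM (214.4 to 617.9) in WT DBD and 412.4 (180.9 to 683.8) in zQ175 DBD, the 5 oligodendrocyte markers 6346 (3857 to 11060) and 5839 (2996 to 10900), and the 5 microglial markers 376.4 (314.3 to 477.4) and 364.5 (282.3 to 448.8). Cortical markers, at 1.44 (0.871 to 2.20) and 1.63 (0.535 to 22.1) TPM, were near 0 in most libraries. The 3 choroid plexus markers had a median of 0.606 TPM (0.189 to 1256) in WT DBD, 1.28 (0.752 to 6.02) in zQ175 DBD and 0.892 (0.371 to 10.0) in zQ175 nZFP. Among them Kl, the klotho gene, was higher in zQ175 DBD in all paradigms except 6M_8M, by 0.854 or more (adjusted p at most 0.000116), and fell by 0.633 under the repressor in 2M_8M (adjusted p = 0.00426). Ttr, the transthyretin gene, passed the filter in 6M_8M only, where it was lower in zQ175 DBD at -6.49 ± 2.00 on the log2 scale (adjusted p = 0.0319). The part of these markers in the members' results was not tested.

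Across the 30 group means, centred within paradigm, the genes with the most similar pattern among 12757 included, for Drd2, Cx3cl1 (Pearson's r = 0.99) and Lzts3 (0.989). For Penk they were Ddit4l (0.997), Gabrd (0.994) and Kcnj4 (0.992), for Adora2a Rasgrp2 (0.996), Hpca (0.992) and Klf16 (0.991), and for Upb1 Acy1 (0.988), Gpr6 (0.984) and Ppp3ca (0.984). Gpr6 was nearest to Penk, Kcnip2 and Drd1 (0.991 each), so a member and a direct pathway gene shared its pattern. Sp9 had no close match, with Jph4 (0.899), Extl1 (0.896) and Ano8 (0.893) nearest. These values describe group means that share libraries and a common drop in zQ175.

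Within groups the members parted. After group means were removed and the libraries of a mouse averaged, Penk and Gpr6 had Pearson's r of 0.658 over 120 mice, Adora2a and Gpr6 0.546, Penk and Adora2a 0.486, Gpr6 and Upb1 0.477 and Penk and Upb1 0.472. Drd2 went with Sp9 (0.393) and not with Penk (-0.244, and Spearman's rho -0.064), and Drd2 and Upb1 had r of -0.284. Without the 2 farthest mice, r of Drd2 was 0.364 with Sp9, -0.129 with Penk and -0.214 with Upb1. The 3 libraries that stood apart, which had low Drd2 and high Penk, were kept in these values. These correlations are descriptions of libraries that share depth and dissection.

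Neighbouring genes did not all follow the members. Ankk1, 7.0 kb past Drd2 on the other strand, was lower in zQ175 DBD by at least 0.80 in all 5 paradigms, past the threshold in each, and rose by 1.04 under the repressor in 2M_6M only (adjusted p = 0.0012). Ttc12, the next gene, stayed between -0.06 and 0.08, and Tmprss5 on the other side of Drd2 was higher by 1.09, 0.81, 0.80 and 1.18 in all paradigms except 6M_8M (0.53, adjusted p = 0.31). Specc1l, 4.1 kb before Adora2a, stayed between -0.11 and 0.16 with adjusted p of 0.41 or more. Bcr, 132.0 kb before Adora2a, was at -0.74, -0.65, -0.46, -0.51 and -0.60 and passed in all paradigms except 6M_12M (adjusted p = 0.062). Under the repressor Bcr passed in 2M_6M only, at 0.60 (adjusted p = 4.1e-08). Fam110b, 1505.3 kb from Penk, was lower by 0.29 to 0.37 except in 6M_8M (-0.17, adjusted p = 0.085). Impad1, nearer to Penk, was higher in 2M_6M by 0.20 (adjusted p = 0.0086). Gucd1, which spans Upb1, differed by -0.35 to -0.17 and passed in all paradigms except 6M_8M, far less than Upb1.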

How the data were processed

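RNA of 233 libraries was sequenced as stranded mRNA libraries, per the labels' protocols. The authors deposited RSEM expected counts on GRCm38, per the submitters' processing notes, without versions; 90.4% were whole, and all were rounded. A second deposited table, with FPKM in its name, holds columns that each sum to 1000000, so its values were used as TPM.

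The members and gene lists were chosen with earlier results of these data known. Low counts were removed with filterByExpr and TMM scaling was applied. edgeR 4.0.16 (R 4.3.3) quasi-likelihood tests with sex as covariate were fitted per paradigm over 6 groups (15523 to 16000 genes), and over 30 groups (16792 genes) for paradigms and sex. Benjamini-Hochberg adjustment ran over all genes. DESeq2 1.42.0 was an alternative. Same-mouse and repressor-level tests were two-sided permutation tests (100000 resamples), adjusted over the 6 measured members although 7 were planned. Penk and Drd2 pairs used two-sided exact tests. On simulated data for the repressor in zQ175 of 2M_6M, 74 of 100 genes changed 1.5-fold and 30 of 100 changed 1.25-fold were recovered.

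The mouse block pairs hemispheres of 1 animal, as the labels give the animal; the median correlation of their deviations was 0.04 to 0.296. Replicate numbers paired libraries in 6M_12M zQ175 DBD and WT DBD only (7 of 7 pairs with r over 0.1). Named list genes had the smallest mean log p over the paradigms; neighbours were the nearest tested genes, and 1 gene that the rule on similar patterns names is not reported here. Scaling, filters, blocks, hemisphere, control virus, length index and left-out libraries were varied.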

Additional observations from a re-analysis of the deposited data

Results flagged for a closer look

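A library far from the rest of its group was found in 18 of 180 combinations of gene and group, where chance gives about 1 in 20. The 3 libraries that stood apart in the balance of long and short genes account for 7. In zQ175 DBD R3 of 2M_6M, Drd2 was 27.15 CPM, Penk 1177 CPM and Upb1 2.483 CPM. In WT DBD R2 of 6M_10M, Drd2 was 97.43 CPM and Penk 2675 CPM, and in zQ175 nZFP R2 of 6M_10M, Drd2 was 55.61 CPM and Penk 1567 CPM. Libraries whose vector entries went against the label account for 4. The library labelled zQ175 nZFP R5 of 6M_8M had Penk at 1310 CPM, Gpr6 at 100.2 CPM and Upb1 at 3.822 CPM, and the one labelled WT DBD R7 of 6M_8M had Adora2a at 269.2 CPM.

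The other 7 lay in libraries with no such sign. Drd2 was 158.5 CPM in zQ175 DBD R4 of 6M_10M, Penk 1892 CPM in WT DBD R7 of 2M_6M, and Gpr6 103.1 CPM in zQ175 Estop R8 of 2M_8M and 143.2 CPM in WT nZFP R8 of 6M_8M. Sp9 was 35.88 CPM in WT Estop R5 of 2M_6M and 44.41 CPM in zQ175 DBD R8 of 6M_8M, and Upb1 was 5.835 CPM in WT nZFP R5 of 2M_6M.

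The repressor effect differed between genotypes by the interaction test of edgeR. On the log2 scale, zQ175 minus WT was 0.70 for Penk, 0.73 for Drd2, 0.49 for Gpr6, 0.70 for Adora2a and 1.07 for Upb1 in 2M_6M. In 2M_8M it was 0.81 for Penk, 0.58 for Drd2, 0.56 for Gpr6, 0.63 for Adora2a and 1.26 for Upb1, and in 6M_10M 1.44 for Upb1. Between 2M_6M and 6M_10M the genotype effect differed by 0.90 for Upb1, and the repressor effect by 0.69 for Drd2 and 0.36 for Adora2a.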

How the results depend on the processing

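Genotype counts of called genes stayed within 1.5 times the reported ones under every alternative run. Of the alternative values of main results, 360 stayed close and 47 moved. The cause was not tested. Shares of all genes called under the alternatives are not given, so the counts of members in this section stand without one. For the repressor in zQ175, 6M_8M went from 0 called genes to 1 with DESeq2 size factors, the hemisphere or the length index as covariate, and the DESeq2 test. In 6M_12M it went from 3 to 5 with the length index or the mouse block. In WT, the call of 6M_8M went to 0 against Estop, with the length index, with the mouse block and without libraries that went against their labels, while 1 gene was called in 2M_8M by DESeq2 and in 6M_10M with the length index. The interaction went from 1 to 0 against Estop and to 2 with the length index in 6M_10M, and from 0 to 3 with the length index and 1 with DESeq2 in 6M_12M.

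Between control viruses in WT, 2M_8M went from 0 to 1 with the length index, the mouse block and DESeq2. In WT of 6M_10M the count went from 1 to 0 with no filter and the mouse block, and to 2 with the hemisphere, the length index, DESeq2 and without libraries that stood apart, and in 6M_12M to 1 with the length index. In zQ175 the count of 2M_6M went from 1 to 0 with no filter, the length index, the mouse block and without the library that stood apart, that of 2M_8M to 0 with no filter and the mouse block, and that of 6M_10M from 0 to 1 with the length index.

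Between 2M_6M and 6M_10M the genotype count went from 1 to 0 with no filter or without libraries that stood apart, and the repressor count from 2 to 0 without the latter. The repressor count of 2M_8M against 6M_12M went from 0 to 1 without either set of libraries, and of 2M_8M against 6M_8M to 2 without those that went against their labels. On the CPM scale the median percent restored of 6M_12M was 19.5%. Without libraries that went against their labels, same-mouse tests in WT against DBD passed for 3 genes in place of 1, Upb1 there turned from 0.013 to -0.121, and Drd2 minus Drd1 passed in 1 genotype test. No repressor-level test (0) passed without the library that stood apart.

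With the replicate number as a block, which pairs libraries only in the 6M_12M genotype groups, the repressor in zQ175 called 6 genes and the interaction 2 in 6M_12M. Control viruses gave 2 in WT of 6M_10M and 0 in zQ175 of 2M_6M under the replicate block, and it moved no other count by over 1.5 times.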
